A study of Mus musculus with 8 samples.

Results

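The early neuronal differentiation genes examined here are 10 genes, Neurog1, Neurog2, Neurod1, Nhlh1, Elavl3, Elavl4, Dcx, Tubb3, Stmn2 and Gap43, taken by symbol from a list of genes known to mark the first neurons. All 10 were among the 26608 gene symbols of the count files. The series holds 8 SAGE libraries of neural tube tissue cut by laser from cryosections of FVB mouse embryos at embryonic day 8.5. Protrusions, outgrowths of the open neural plate, gave 4 libraries, of which protrusion 1 is labelled separated from the plate and protrusions 2, 3 and 4 are labelled attached to it. Open neural tube, tissue of normal shape just anterior to closure site 1, gave the other 4, numbered 9, 10, 13 and 14. The dams of both groups were diabetic, so the comparison is between protrusions and open neural tube within diabetic pregnancies, and it has no group from healthy dams. The source labels give a site along the axis only for open neural tube, so shape and site cannot be told apart. The labels do not say that each library comes from its own embryo, and protrusions 1 and 2 have titles with a common stem, so p-values reflect only how these libraries vary, and some of that variation may be technical. In such bulk tissue, fewer cells of a type and less RNA per cell cannot be told apart.

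Neurons arise from dividing progenitors of the neural plate in a known order. Proneural factors such as Neurog1 and Neurog2 commit a progenitor and raise Delta ligands, which hold back the neighbouring cells through Notch, and Neurod1 and Nhlh1 act after them. The RNA-binding proteins Elavl3 and Elavl4 mark the newborn neuron, and Tubb3, Dcx, Stmn2 and Gap43 build its microtubules and growth cone. At this stage the closing neural plate consists largely of progenitors, and the first neurons are few.

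SAGE reads 1 short tag per transcript, next to a restriction site towards its 3′ end. A longer transcript therefore gives no more tags, and CPM values are compared between genes without a length correction. Whether tags of some genes were lost was not checked, and sharing was checked only for the 10 genes, in reference transcripts. Hbb-y, an embryonic globin gene, was at 0 in all 8 libraries, where Hba-x, another, reached 994 CPM in open neural tube. Kits of this type anchor the tag at the sequence CATG. All 10 genes carry such a site in every coding transcript of the GENCODE M21 basic set (build GRCm38), followed by enough bases for a tag. The site nearest the 3′ end of the longest transcript is shown, with the 17 bases after it, for the 3 genes that gave most of the reads and for the 2 genes that gave none. Capitals mark the CATG site.
Tubb3: CATGtgagtccacttggctct
Stmn2: CATGggtgatgatgttcattt
Gap43: CATGcctgaactttaagaaat
Neurog1: CATGcattatggatcccgacc
Nhlh1: CATGctgctgagccccaccca
None of these 5 sequences occurred next to a CATG site in transcripts of another gene (0 other genes for each). The site lay 164 bases from the transcript end in Tubb3, 430 in Stmn2, 596 in Gap43, 237 in Neurog1 and 641 in Nhlh1. The files give counts per gene, and the tag behind each count is not stated. No coordinates are printed, since the authors' build was mm9. The 5 genes lie on chromosomes 8 (Tubb3), 3 (Stmn2), 16 (Gap43), 13 (Neurog1) and 1 (Nhlh1).

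Total counts were 6112477 to 11430602 reads in protrusions and 5668054 to 16655583 in open neural tube. A gene with 3 reads therefore stood at 0.180 to 0.529 CPM (counts scaled to the library total), taken here as the floor of detection. The libraries differed in how many genes they held. Thinned to 5668054 reads each, protrusions had 14380 to 15533 genes with a read, and open neural tube had 9920 to 11258. Of the 9255 genes with a mean under 5 CPM, the share of values at 0 was 32.4% in protrusions and 76.2% in open neural tube. For genes of 5 to 20 CPM these shares were 0.297% and 11.5%, and for genes of 20 to 100 CPM 0.0271% and 0.508%. Open neural tube 13 stood apart. The summed level of 7 neural plate markers was 178 CPM there, against 781 to 1119 CPM in the other 3 open neural tubes and 414 to 999 CPM in protrusions. Its 7 endothelial markers summed to 164 CPM, against 7.504 to 45.8 CPM in the other open neural tubes and 1.29 to 34.7 CPM in protrusions. Each of the 7 neural plate markers had reads in at least 1 library of both groups. Summed over 7 markers each, erythroid genes ranged over 0.430 to 46.2 CPM in protrusions and 1.06 to 1010.1 CPM in open neural tube, surface ectoderm genes over 141 to 1035 CPM and 57.3 to 324 CPM, and endoderm and notochord genes over 9.82 to 126 CPM and 15.1 to 31.7 CPM. The part of such cells in the neuronal reads was not tested.

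Transcripts of the neuronal genes were present at low levels in all 8 libraries. Summed over the 10 genes, they came to 141, 233, 122 and 155 CPM in protrusions 1, 2, 3 and 4, against 108, 89.6, 20.5 and 92.8 CPM in open neural tubes 9, 10, 13 and 14. Every protrusion lay above every open neural tube in this sum, but without Gap43 protrusion 3 would lie below open neural tube 9. Among single genes tested, 8.84% separated with protrusions higher, and the share of such sums over other genes was not counted. Most of the reads came from the late genes of the list. Tubb3, Stmn2 or Gap43 was the most abundant member in every library, and the early factors Neurog2 and Neurod1 were more often low or at 0. At least 3 reads were found for 7, 7, 8 and 7 of the 10 genes in protrusions 1 to 4, against 6, 6, 2 and 5 in open neural tubes 9, 10, 13 and 14. The gap in genes detected described above runs the same way, and its part in these counts was not tested.

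**Figure D1:**
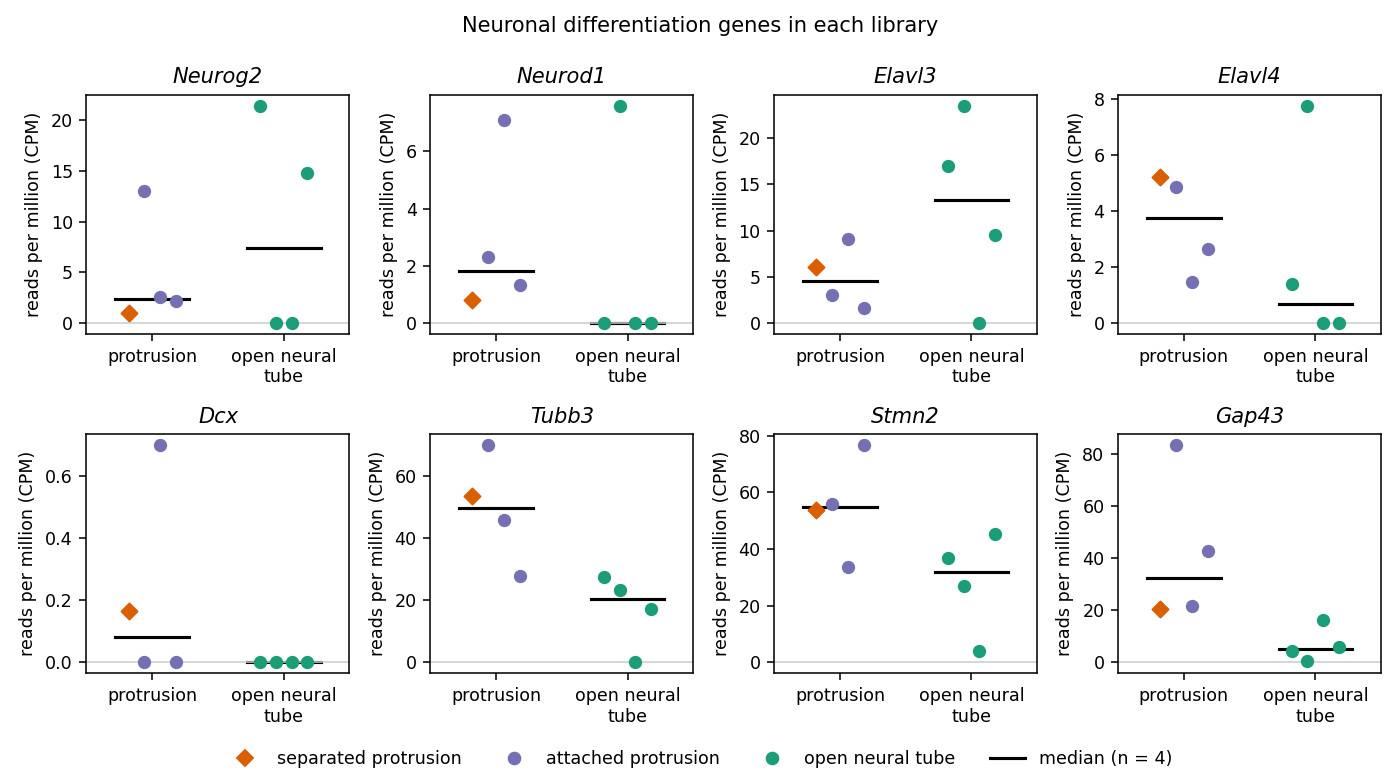
Level of 8 members in each library, in CPM on a linear axis, with 1 point per library and a line at the median of each group of 4. Tubb3 and Gap43 are the members in which all 4 protrusions lie above all 4 open neural tubes, and Neurog2, Neurod1, Elavl3 and Elavl4 have open neural tubes at 0.

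Neurog1 and Nhlh1 had 0 reads in all 8 libraries. Neurog1 is a proneural factor of sensory neuron and dorsal neural lineages, and Nhlh1 is a factor of young neurons after they leave the cell cycle. At the floor of 3 reads, a count of 0 allows up to 0.180 CPM in the deepest library (open neural tube 13) and up to 0.529 CPM in the shallowest (open neural tube 10). The Clopper-Pearson 95% upper limits there were 0.221 and 0.651 CPM. These limits cover counting error only. Some other genes of neural tissue were near 0 as well. Of 31 genes of the neuronal cytoskeleton and growth cone, 0 were at 0 in all protrusions. In all open neural tubes 4 of the 31 were at 0 (Tubb2b, Tuba1a, Stmn4 and L1cam). Zeros were more common in open neural tube over all genes as well. For genes with a mean under 5 CPM, 76.2% of values were at 0 there, against 32.4% in protrusions. The share of all genes at 0 in every library of a group was not counted. Summed, the 31 genes came to 1617 to 2266 CPM in protrusions and 1595 to 1842 CPM in open neural tubes. Tuba1a, an α-tubulin gene of developing neurons, averaged 1.72 CPM in protrusions (0 in the separated one) and was at 0 in all 4 open neural tubes, and Tubb2b, a β-tubulin gene, averaged 0.319 CPM in protrusions and was also at 0 in open neural tube (both chosen after their values were seen).

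Neurog2, the proneural factor of spinal and hindbrain progenitors, was the early factor with most reads. It stood at 0.982, 13.05, 2.54 and 2.16 CPM in protrusions 1 to 4, against 21.4, 0, 0 and 14.8 CPM in open neural tubes 9, 10, 13 and 14. The open neural tubes thus held the highest values and the zeros, and the protrusions lay between them. Protrusions differed from open neural tube by −1.03 ± 1.71 (log2 fold change ± SE, n = 4 each, edgeR adjusted p = 0.843), with a 95% interval of −4.84 to 2.78.

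Neurod1, which acts after the proneural factors, was found at 0.818, 2.29, 7.09 and 1.32 CPM in protrusions 1 to 4. In open neural tube it was read only in library 10, at 7.59 CPM, and had 0 reads in libraries 9, 13 and 14. Open neural tube 10, the only one with Neurod1 reads, was also one of the 2 without Neurog2 reads. The fitted difference of Neurod1 was 0.55 ± 1.93 on the log2 scale (n = 4 each, edgeR adjusted p = 0.934), and it took the other sign, −0.30, without protrusion 3.

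Elavl3, an RNA-binding protein of newborn neurons, had its 2 highest values in open neural tube. It stood at 6.05, 3.01, 9.10 and 1.68 CPM in protrusions 1 to 4, against 16.98, 23.5, 0 and 9.55 CPM in open neural tubes 9, 10, 13 and 14. The groups overlapped, since open neural tube 13 was at 0. With library 13 set aside after the values were seen, all other open neural tubes lay above all protrusions. The closest pair was 9.10 CPM in protrusion 3 and 9.55 CPM in open neural tube 14, a gap smaller than the counting error. Their Clopper-Pearson intervals overlapped, at 7.43 to 11.02 CPM in protrusion 3 and 7.57 to 11.89 CPM in open neural tube 14. The share of all genes that separate in this way was not counted. The fitted difference was −1.43 ± 1.29 (log2 fold change ± SE, n = 4 each, edgeR adjusted p = 0.681). Without open neural tube 13 it was −1.82, with an edgeR adjusted p of 0.200. Over all alternatives, Elavl3 ranged over −1.98 to 1.502, with adjusted p between 0.200 and 0.884.

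Its relative Elavl4, which stabilises transcripts of growing neurons, stood at 5.24, 4.88, 1.49 and 2.64 CPM in protrusions 1 to 4, against 1.38, 7.76, 0 and 0 CPM in open neural tubes 9, 10, 13 and 14. It was read in all protrusions and in 2 of the open neural tubes, and the groups overlapped. Elavl4 differed by 0.64 ± 1.68 on the log2 scale (n = 4 each, edgeR adjusted p = 0.910). The balance of the 2 relatives varied between libraries. There were 1.16, 0.618, 6.12 and 0.636 reads of Elavl3 for each read of Elavl4 in protrusions 1 to 4, against 12.3 and 3.02 in open neural tubes 9 and 10. Both genes were at 0 in open neural tube 13, and Elavl4 alone was at 0 in open neural tube 14.

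Dcx, a microtubule-binding protein of migrating neurons, was barely read. It had 1 read in protrusion 1, 8 reads in protrusion 3 and 0 reads in the 6 other libraries. The 8 reads amount to 0.700 CPM, with an exact binomial (Clopper-Pearson) 95% interval of 0.302 to 1.38 CPM. Dcx did not pass the filter on low counts and was left out of the main test.

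Tubb3, the neuronal class III β-tubulin, stood at 53.7, 70.1, 45.8 and 27.8 CPM in protrusions 1 to 4, against 27.6, 23.5, 0.120 and 17.2 CPM in open neural tubes 9, 10, 13 and 14. All protrusions lay above all open neural tubes, but the gap between protrusion 4 and open neural tube 9 was far smaller than the counting error. The Clopper-Pearson 95% intervals were 24.3 to 31.6 CPM in protrusion 4 and 24.5 to 31.1 CPM in open neural tube 9. The fitted difference was 1.46 ± 0.94 (log2 fold change ± SE, n = 4 each, edgeR adjusted p = 0.523), with a 95% interval of −0.62 to 3.54. Open neural tube 13, with only 2 reads of Tubb3, weighed on the average of its group, which was 17.1 ± 12.1 CPM (SD, n = 4) and 22.8 CPM without it, against 49.3 ± 17.6 CPM in protrusions (SD, n = 4). Without that library the difference was 1.07, with an edgeR adjusted p of 0.159. Over all alternatives it ranged over 0.99 to 4.16, the highest with limma-voom, and its adjusted p over 0.113 to 0.791, the highest without protrusion 2.

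Stmn2, which controls microtubule turnover in growing axons, was the most abundant of the 10 genes on average. It stood at 53.8, 55.9, 33.5 and 76.7 CPM in protrusions 1 to 4, against 36.7, 26.8, 4.02 and 45.4 CPM in open neural tubes 9, 10, 13 and 14. The groups overlapped, with protrusion 3 below open neural tubes 9 and 14. Stmn2 differed by 0.89 ± 0.60 (log2 fold change ± SE, n = 4 each, edgeR adjusted p = 0.543), and its 95% interval, −0.43 to 2.21, was the narrowest of the 7 members tested. Differences of more than 4.64-fold towards protrusions lay outside that interval.

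Gap43, a membrane protein of the growth cone, showed the widest separation of the groups. It stood at 20.5, 83.6, 21.7 and 42.9 CPM in protrusions 1 to 4, against 4.25, 0.529, 16.4 and 5.85 CPM in open neural tubes 9, 10, 13 and 14. All protrusions lay above all open neural tubes, and the highest open neural tube was library 13, the one in which the other neuronal genes were lowest or at 0. The fitted difference was 2.54 ± 0.86 (log2 fold change ± SE, n = 4 each), with a 95% interval of 0.63 to 4.44 that does not adjust for the number of genes tested. It had an edgeR p of 0.0141 and an edgeR adjusted p of 0.180, so it did not pass the threshold of 0.05 over all genes. With 1 library left out, it was lowest at 2.01 without protrusion 2 (edgeR adjusted p = 0.466) and highest at 3.51 without open neural tube 13 (edgeR adjusted p = 0.0568). DESeq2, fitted to the same counts, gave a log2 difference of 2.58 with an adjusted p of 0.0268. The adjusted p was 0.208 with limma-voom and 0.319 with its sample weights, and over all alternatives it ran between 0.0268 and 0.466.

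**Figure D2:**
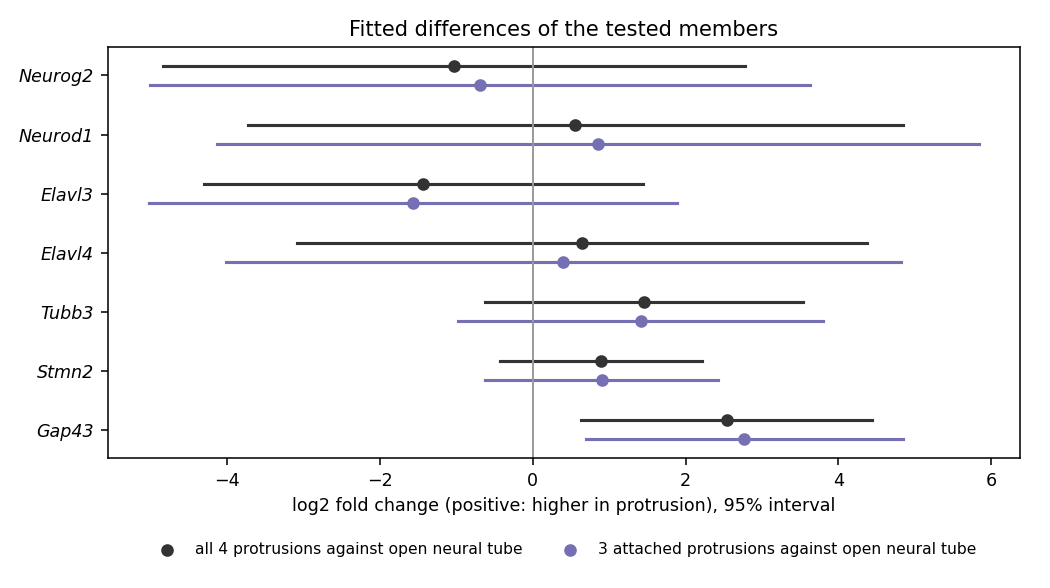
Log2 fold change of each tested member with its 95% interval from edgeR, for all 4 protrusions (black) and for the 3 attached protrusions (purple) against the same 4 open neural tubes. Gap43 alone has intervals above 0 (0.63 to 4.44 with all protrusions), which are not adjusted for the number of genes tested.

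Over 11036 genes and with the quasi-likelihood test of edgeR, 0 of the 7 tested members passed a Benjamini-Hochberg adjusted p of 0.05, where 0.607% of all genes did. The 3 members not tested were Neurog1, Nhlh1 and Dcx. At an unadjusted p under 0.05 there was 1 member, Gap43, where 15.3% of all genes fell below that value. DESeq2 called 1 member, Gap43, where it called 7.39% of all genes to which it gave an adjusted p, and limma-voom called 0, where it called 3.52%. In 2 members, Tubb3 and Gap43, the groups did not overlap and protrusions were higher, as in 8.84% of all genes tested. Fitted values of edgeR were above 0 in 5 members and below 0 in 2, where 53.7% of all genes tested were above 0. With limma-voom all 7 members were above 0. The edgeR median of the members was 0.64, beside a median of 0.08 over all genes tested. Intervals of several log2 units for Neurog2, Neurod1, Elavl3 and Elavl4 mean that large differences in either direction were not detectable for them in these libraries.

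The make-up of the neuronal reads also varied between libraries. Gap43 made up 14.5%, 35.9%, 17.8% and 27.7% of the summed reads of the 10 genes in protrusions 1 to 4, against 3.92%, 0.591%, 79.8% and 6.31% in open neural tubes 9, 10, 13 and 14. Neurog2 made up 0.695%, 5.603%, 2.08% and 1.39% in protrusions 1 to 4, against 19.8%, 0%, 0% and 15.96% in open neural tubes 9, 10, 13 and 14. For Elavl3 these shares were 4.29%, 1.29%, 7.47% and 1.08% in protrusions 1 to 4, against 15.7%, 26.2%, 0% and 10.3% in open neural tubes 9, 10, 13 and 14. Leaving library 13 aside, open neural tubes gave more of their neuronal reads to Elavl3, and less to Gap43, than any protrusion did. No test was run on these shares, which were looked at after the values were seen.

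**Figure D3:**
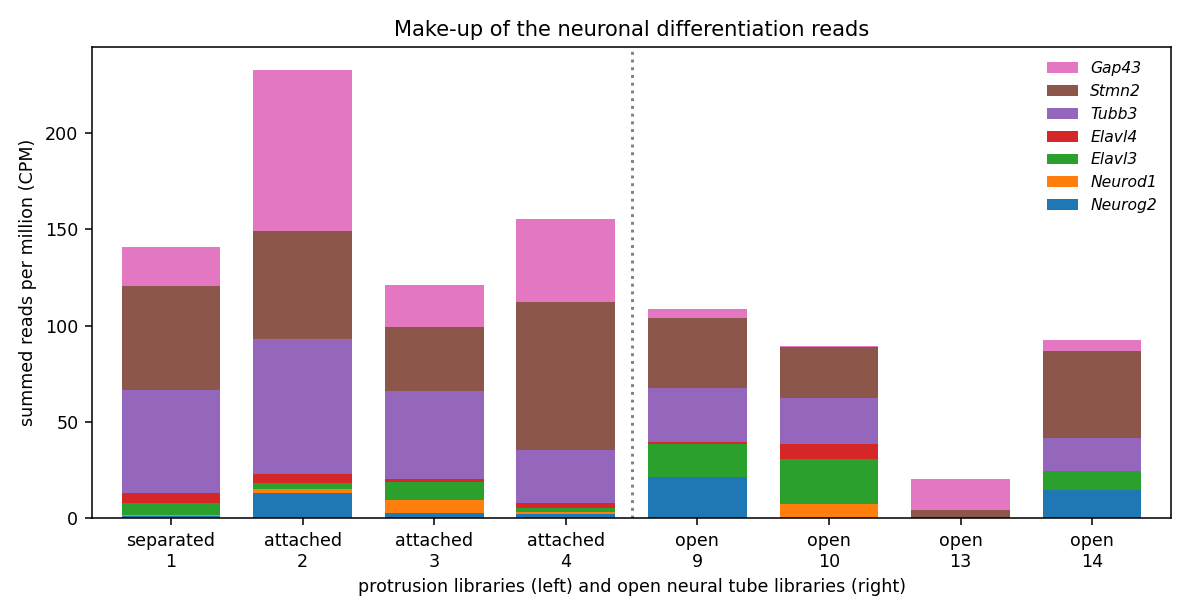
Summed level of 7 members in each library, in CPM, with protrusions on the left of the dotted line and open neural tubes on the right. Coloured segments give the level of each gene, and Gap43 (pink) takes 14.5% to 35.9% of the bar in protrusions and 79.8% of the short bar of open neural tube 13.

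Among the attached protrusions alone the picture was close to that of all 4. The 3 attached protrusions were set against the same 4 open neural tubes, so the result shares its libraries with the one above. Again 0 of the 7 tested members passed with edgeR, where 1.5% of 11466 genes did (87 higher and 85 lower; 128 higher and 83 lower without scaling factors), and 1 member, Gap43, had an unadjusted p under 0.05, as did 17.7% of all genes. Gap43 averaged 49.4 ± 31.5 CPM in the 3 attached protrusions, against 6.75 ± 6.80 CPM in the 4 open neural tubes (SD), a log2 difference of 2.77 ± 0.92 (SE, edgeR adjusted p = 0.141). Over the alternatives its adjusted p ran between 0.0243 and 0.467. DESeq2 called Gap43 with an adjusted p of 0.0243, where it called 9.99% of all genes, and limma-voom called 0 members, where it called 8.03%. Tubb3 and Gap43 were again the 2 members without overlap, higher in attached protrusions, as were 17.9% of all genes.

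The separated protrusion lay within the attached range in some members and outside it in others. Its Stmn2 (53.8 CPM) and Tubb3 (53.7 CPM) fell within the attached range of 33.5 to 76.7 CPM and 27.8 to 70.1 CPM. Its Neurog2 (0.982 CPM, Clopper-Pearson 95% interval 0.360 to 2.14), Neurod1 (0.818 CPM, 0.266 to 1.91) and Gap43 (20.5 CPM, 17.02 to 24.4) were below the attached ranges, which began at 2.16, 1.32 and 21.7 CPM. Elavl4 (5.24 CPM, 3.58 to 7.39) was above the attached maximum of 4.88 CPM (3.38 to 6.81, protrusion 2), but these intervals overlapped. With a fit over 3 groups, in which the lone library is assumed to vary like the others, 0 of 7 members passed with edgeR, where 0.00729% of 13712 genes did. At an unadjusted p under 0.05 the count was 0 members, where 3.87% of all genes passed, and DESeq2 called 0 members, where it called 2.65%. The 95% interval of Stmn2 ran from −2.30 to 2.27 on the log2 scale around a difference of −0.01, so differences within that range were not excluded. There is no second separated protrusion to check any of the values of protrusion 1.

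Genes whose pattern over the 8 libraries was most like that of Stmn2, the most abundant member, were Sema4d, Rusc1 and Frmd5. Likeness was measured as the root mean square difference of log2 CPM, each gene centred on its own mean, which was 0.46, 0.47 and 0.49 for the 3 genes and 1.45 in the median of 11035 genes. Sema4d stood at 96.4, 181, 90.2 and 123 CPM in protrusions 1 to 4, against 78.7, 39.7, 15.6 and 78.9 CPM in open neural tubes 9, 10, 13 and 14. All 3 genes were lowest in open neural tube 13, as Stmn2 was. The other members were less like Stmn2, with Tubb3 closest at 1.28 and Gap43 farthest at 2.10.

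Other genes of neurogenesis were described from lists in the same way, and none of the lists was tested as a set. Over all genes, 31 of 11036 passed as higher and 36 as lower with all protrusions (0.607% together). Of 22 further proneural and commitment factors, 9 were tested, 0 rose and 1 fell. That was Sox11, which drives neuronal genes in committed cells and is shared with progenitors. It stood at 1398, 846, 1027 and 784 CPM in protrusions 1 to 4, against 1821, 2232, 2746 and 2608 CPM in open neural tubes 9, 10, 13 and 14, with a log2 difference of −1.31 ± 0.22 (n = 4 each, edgeR adjusted p = 0.0390). The call ended when any library other than protrusion 1 was left out (adjusted p up to 0.133). The median of the 9 was −0.30, beside 0.08 over all genes. Of 18 homeodomain factors of neuron subtypes, 2 were tested and 0 passed. Onecut2 had a log2 difference of 0.00 ± 1.32 (edgeR adjusted p = 0.999).

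Delta genes, among them Dll1 and Dll3, were part of the list of 26 Notch and Id genes. Of 20 tested, 1 rose, Dll3, and 0 fell with all protrusions, where 0.607% of all genes passed. With attached protrusions 2 of 21 rose, Dll3 and Dll1, where 1.5% of all genes passed. The list had a median of 0.72, beside 0.08 over all genes. Dll1, the ligand that proneural factors raise, stood at 110, 323, 342 and 430 CPM in protrusions 1 to 4, against 79.9, 28.6, 33.5 and 12.7 CPM in open neural tubes 9, 10, 13 and 14. The difference was 2.85 ± 0.58 with all protrusions (log2, edgeR adjusted p = 0.0575) and 3.13 ± 0.53 with attached ones (edgeR adjusted p = 0.0338). The call with attached protrusions was lost when open neural tube 10, 13 or 14 or protrusion 2, 3 or 4 was left out (adjusted p up to 0.109). Dll3 stood at 6.71, 369, 241 and 349 CPM in protrusions 1 to 4, against 0.592, 1.06, 1.98 and 2.03 CPM in open neural tubes 9, 10, 13 and 14. With all protrusions it rose by 7.28 ± 1.09 (log2, n = 4 each, edgeR adjusted p = 0.0265). This call ended when any library except protrusion 1 was left out, with limma-voom and with no low-count filter (adjusted p up to 0.556). With attached protrusions Dll3 rose by 7.69 ± 0.46 (log2, edgeR adjusted p = 0.000565). Dll1 and Dll3 are also genes of the presomitic mesoderm. The 11 markers of primitive streak and paraxial mesoderm, Dll3 among them, summed to 654, 1562, 1437 and 1552 CPM in protrusions 1 to 4, against 74.4 to 532 CPM in open neural tube, and 0 of the 11 were at 0 in all protrusions. The part of such cells in the Delta values was not tested.

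Progenitor genes came next. Of 17 neural plate and progenitor genes, 14 were tested and 0 passed with all protrusions, with a median of 0.11 beside 0.08 over all genes. With attached protrusions, where 1.5% of all genes passed, 15 were tested, 0 rose and 1 fell. That was Sox1, a factor of committed neural progenitors, at 108 CPM in the separated protrusion, at 4.01, 6.12 and 6.85 CPM in the attached ones, and at 99.3, 78.0, 15.3 and 99.6 CPM in open neural tubes 9, 10, 13 and 14. Its difference was −3.78 ± 0.66 with attached protrusions (log2, edgeR adjusted p = 0.0350) and −1.29 ± 1.03 with all 4 (edgeR adjusted p = 0.628). The call was lost when open neural tube 9, 10 or 14 or protrusion 2, 3 or 4 was left out, and with limma-voom (adjusted p up to 0.247).

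Among 31 genes of the neuronal cytoskeleton and growth cone, 22 were tested and 0 passed with edgeR, with a median of −0.18 beside 0.08 over all genes. Nrcam, an axonal adhesion molecule, stood at 12.6, 1.43, 1.22 and 2.52 CPM in protrusions 1 to 4, against 61.4, 43.4, 4.02 and 58.5 CPM in open neural tubes 9, 10, 13 and 14 (log2 −3.31 ± 0.98, edgeR adjusted p = 0.120). With attached protrusions its difference was −4.67 ± 0.94 (log2, edgeR adjusted p = 0.05001). DESeq2 called Nrcam with all protrusions (adjusted p = 0.00540), where it called 7.39% of all genes. It also called Nrcam with attached ones (adjusted p = 1.61e-06), where it called 9.99%. Over the alternatives the adjusted p of Nrcam ran up to 0.405 with all protrusions and 0.418 with attached ones. Basp1, a growth cone protein related in function to Gap43, stood at 172, 119, 132 and 117 CPM in protrusions 1 to 4, against 45.6, 50.8, 60.9 and 103 CPM in open neural tubes 9, 10, 13 and 14, without overlap, as in 8.84% of all genes (log2 0.96 ± 0.29, edgeR adjusted p = 0.129). DESeq2 called Basp1 with all protrusions (adjusted p = 0.0383) but not with attached ones (adjusted p = 0.132).

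Of 15 neuronal RNA-binding and splicing regulators, 13 were tested and 0 passed with all protrusions, with a median of −0.24. With attached protrusions, where 1.5% of all genes passed, 1 fell, Ptbp2, the splicing repressor that newborn neurons use in place of Ptbp1. Ptbp2 stood at 497, 456, 367 and 448 CPM in protrusions 1 to 4, against 775, 760, 756 and 695 CPM in open neural tubes 9, 10, 13 and 14. Its difference was −0.90 ± 0.18 with attached protrusions (log2, edgeR adjusted p = 0.0491) and −0.84 ± 0.17 with all 4 (edgeR adjusted p = 0.0562), and the call ended with each of the 7 libraries left out in turn (adjusted p up to 0.160).

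The REST complex, which represses neuronal genes in other cells, had 10 of 12 genes tested and 0 past the threshold, with a median of 0.40. Its members with the smallest p were Hdac2, at a log2 difference of −0.57 ± 0.20 (edgeR adjusted p = 0.189), and Rcor2, at −0.76 ± 0.26 (edgeR adjusted p = 0.191). Of 18 synaptic and mature neuron genes, 9 were tested and 0 passed, with a median of 0.54. Snap25, a vesicle fusion protein, stood at 3.44, 3.01, 0.612 and 3.37 CPM in protrusions 1 to 4, against 13.6, 14.8, 0 and 9.79 CPM in open neural tubes 9, 10, 13 and 14 (log2 −1.92 ± 1.39, edgeR adjusted p = 0.587), and Syt11 had a log2 difference of 0.61 ± 0.49 (edgeR adjusted p = 0.627). Neurog2, Elavl3, Snap25 and Nrcam were all at 0 or at their lowest open neural tube value in library 13.

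**Figure D4:**
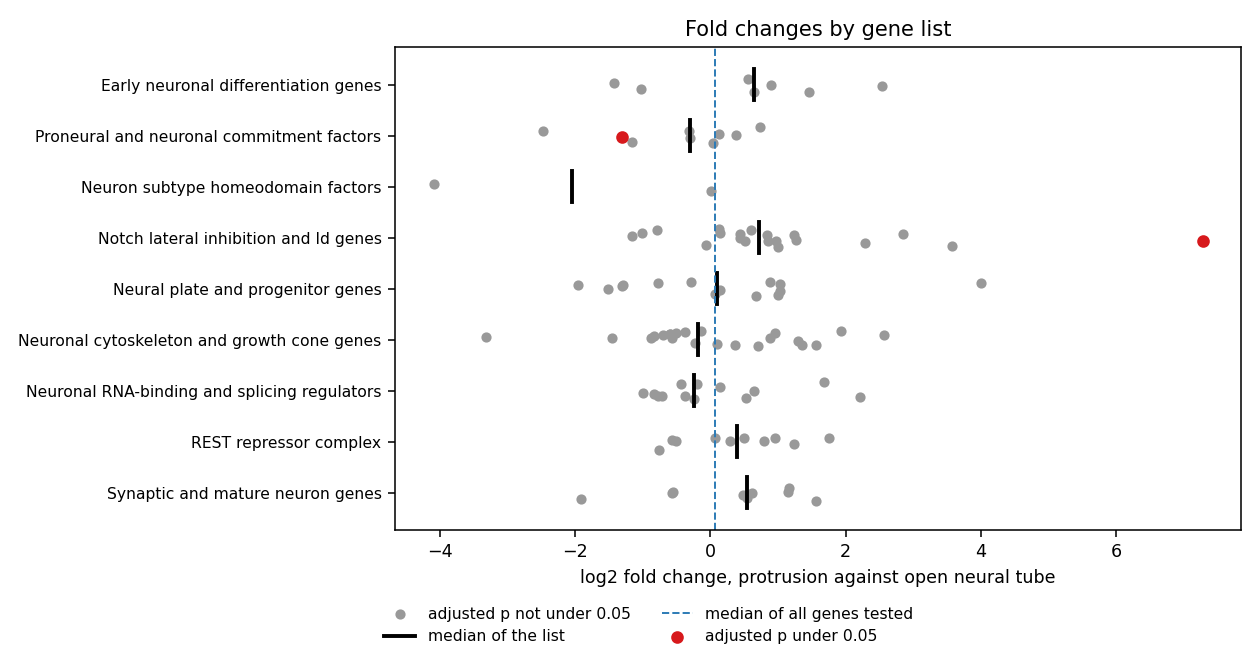
Log2 fold change of protrusion against open neural tube for each tested gene of 9 lists, with the median of each list (black bar) and of all genes tested (dashed line, 0.08). Red points passed an edgeR adjusted p of 0.05 and are Sox11, at −1.31, and Dll3, at 7.28.

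Sensory neurons of the cranial ganglia arise from placodes and neural crest, which lie near the neural plate and express Neurog1, Neurod1 and Tubb3. The 7 markers of cranial placode summed to 31.9, 22.7, 13.6 and 40.0 CPM in protrusions 1 to 4, against 3.85, 28.4, 76.7 and 23.9 CPM in open neural tubes 9, 10, 13 and 14. Of these, 1 was at 0 in all protrusions (Pax8) and 4 were at 0 in all open neural tubes (Six4, Dlx5, Pax2 and Pax8). As said above, zeros were more common in open neural tube over all genes. The 7 neural crest markers summed to 62.2, 27.4, 26.6 and 36.4 CPM in protrusions 1 to 4, against 66.5, 82.2, 79.8 and 28.3 CPM in open neural tubes 9, 10, 13 and 14, and Foxd3 was at 0 in all open neural tubes. Whether such cells gave part of the neuronal reads was not tested.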

How the data were processed

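Each SOLiD SAGE library was made with 7 to 12 ng of RNA, per the labels. The authors deposited whole-number counts of tags per gene symbol, with no normalization, and the submitters' processing notes name mm9. For the aligner, ambiguous tags and strand, settings were not given in the sources used here. No molecular identifiers are named, so intervals and floors cover counting error only. CPM values are counts divided by the library total. Tests used edgeR 4.0.16 under R 4.3.3 (filterByExpr with a minimum count of 10, TMM factors, robust quasi-likelihood F test, 2-sided, Benjamini-Hochberg over all genes), and SE came from the F statistic. DESeq2 1.42.0 and limma-voom 3.58.1 were alternatives, with other scaling factors, filters and each library left out. Likeness used log2 CPM with a prior count of 2. The scripts were tested on simulated data. Protrusions are numbered in the order listed, open neural tubes by their titles.

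Members and lists were chosen with earlier results of these data known. Besides the members, the text names from each list up to 3 genes past the threshold in any comparison, or the 2 with the smallest p, and the 3 genes most like the most abundant member. A gene that this rule names is not reported here. Reference tags came from GENCODE M21. Replicate libraries differed by far more than sampling noise (chi-square per gene 30.2 or more).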

Additional observations from a re-analysis of the deposited data

Results flagged for a closer look

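In 2 of the 15 sets of 4 values checked, 1 library stood far from the other 3, by a rule (Dixon's 95% critical value) that chance meets in about 1 set in 20 where values are normally distributed, which low CPM values need not be. Neurog2 was at 13.05 CPM in protrusion 2, against 0.982 to 2.54 CPM in the other protrusions. Neurod1 was at 7.59 CPM in open neural tube 10, against 0 reads in the other open neural tubes. With 3 values at 0, any other value meets the rule.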

How the results depend on the processing

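No paired analysis was possible because the groups share no replicate number. Members called stayed at 0 in all alternatives but DESeq2, which called 1 (Gap43) in each of the comparisons with open neural tube. With all protrusions against open neural tube, 108 of 115 refits of single members kept direction and side of the threshold. There the other direction appeared for Neurog2 (1.65 with limma-voom, 1.00 with its sample weights) and Elavl3 (1.502 and 0.46), for Neurod1 without protrusion 3 (−0.30; 7.75 without open neural tube 10, where its group was left at 0 reads), and for Elavl4 (−0.020) without the separated protrusion and open neural tube 13 together, a setting chosen after seeing the data. With attached protrusions 88 of 98 refits kept both, in fold changes read after seeing the data. The other direction appeared for Neurog2 (1.93 with limma-voom, 1.41 with weights, −2.04 to 0.20 with 1 library left out, turning without open neural tube 9) and Elavl3 (1.39 and 0.50), and with 1 library left out for Neurod1 (−0.0049 to 8.10, turning without protrusion 3) and Elavl4 (−0.16 to 2.59, turning without open neural tube 13 or 14 or protrusion 2). For the separated against the attached protrusions 80 of 84 kept both, and the other direction appeared for Stmn2 (0.050 with upper-quartile factors, −0.31 to 0.31 with 1 left out, turning without protrusion 2 or 4) and Tubb3 (−0.063 to 0.65, turning without protrusion 4). For all of these, the cause was not tested. The 80 refits include those of Neurog2, Neurod1 and Elavl4 with DESeq2, which gave them no adjusted p and which were read as not passing. The median of the members was 2.46 with limma-voom and 2.87 with weights, and 0.24 to 1.65 with 1 library left out. The median of all genes was 0.35 with limma-voom and 0.47 with no filter, against 0.08.

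Counts over all genes moved more. For all protrusions, 67 became 103 with upper-quartile factors, 157 with a filter of 20 CPM, 795 with DESeq2, 389 and 222 with limma-voom, 211 without the separated protrusion and open neural tube 13 together, and 1 (without open neural tube 9) to 172 (without protrusion 1) with 1 library left out. For attached protrusions, 172 became 1111 with DESeq2, 921 and 1102 with limma-voom, and 10 to 211 with 1 left out; without scaling factors the median of all genes there was 0.19, against 0.09. For the separated protrusion, 1 became 2 with relative log expression or no factors, 4 with no filter, 207 with DESeq2, and 0 to 15 with 1 left out.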
